A study of Gallus gallus with 4 samples.

Results

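Proteasome genes and ubiquitin-conjugating enzyme genes were followed in the dermal papilla complex of growing chicken feathers. The members were all rows of the deposited expression table whose gene name began with PSM, a letter from A to G and a digit, or with UBE2 and a letter. This rule used no measured value and took 64 of 15386 genes, 37 with PSM names and 27 with UBE2 names. PSMC3IP fell under the name pattern although it encodes a partner of the recombinases of meiosis and not a proteasome subunit, so it was kept apart. The other 36 PSM genes were 12 of the 20S core, 18 of the 19S regulatory particle with its assembly chaperones, and 6 activator, inhibitor and assembly genes. RNA came from papilla complexes of untreated White Leghorn chickens, from dorsal feathers in the growing stage, with 2 libraries from the anterior side of the papilla and 2 from its posterior side. The sources do not say whether the libraries came from separate birds or from pools. All p-values thus rest on the spread between these libraries alone, and that spread may be technical.

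The proteasome is the main protease of the cytosol and nucleus. Its 20S core is a barrel of alpha rings, which gate the entry, and beta rings, which hold the proteolytic sites. The 19S particle caps the barrel, binds ubiquitin-tagged proteins, removes the tag and feeds the protein in with a ring of ATPases. The tag is laid down by a cascade in which an E1 enzyme activates ubiquitin, an E2 enzyme carries it and an E3 ligase selects the target. UBE2 genes encode the E2 step, some of them for the ubiquitin-like proteins NEDD8 and ISG15. The roles given below are those known from human, mouse and yeast proteins. The feather papilla is a signalling mesenchyme beside a fast-dividing epithelium, and several E2 enzymes serve cell division.

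Levels are given as RPKM, reads per kilobase of gene scaled to the mapped reads of the library, as made by the authors. The number of reads is unknown, but the steps between low values gave a depth of 100.1%, 77.0% and 99.7% of that of anterior library 1 in anterior library 2, posterior library 1 and posterior library 2. Posterior library 1 stood apart from the other 3 libraries. The summed level of 6 smooth muscle markers was 154 and 129.8 RPKM on the anterior side, against 3683 RPKM in posterior library 1 and 70.4 RPKM in posterior library 2, and all 6 were highest in posterior library 1. All 18 measured proliferation genes were lowest in posterior library 1, with a summed level of 717 and 753 RPKM in the anterior libraries against 376 and 718 RPKM in posterior libraries 1 and 2. The 6 papilla markers summed to 144 and 161 RPKM in the anterior libraries, against 65.2 and 155 RPKM in the posterior ones. CORIN, ALPL and LEF-1 were higher in both anterior than in both posterior libraries, PROM1 and VCAN overlapped, with VCAN highest in posterior library 2, and SOX2 was near 0 throughout, at 0.163 RPKM or less. Keratinocyte markers summed to 2595 and 873 RPKM on the anterior side, against 1278 and 943 RPKM on the posterior side, and the alpha-globin genes HBAA and HBAD to 139 and 623 RPKM, against 247 and 152 RPKM. The 4 melanocyte markers summed to 14.6 and 20.3 RPKM on the anterior side, against 1.81 and 6.55 RPKM on the posterior side. The 4 endothelial markers summed to 105 and 95.8 RPKM in the anterior libraries, against 146 and 108 RPKM in the posterior ones. Of these 4, 2 were highest and 2 lowest in posterior library 1. The 3 leukocyte markers summed to 24.6 and 17.6 RPKM on the anterior side, against 27.3 and 18.5 RPKM on the posterior side. The part of these cell type markers, of proliferation and of depth in the results below was not tested, and in such bulk tissue fewer cells of a type and less RNA per cell cannot be told apart.

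All 64 members were above 0 in every library, and all 64 were among the 10939 genes tested, defined as reaching 1 RPKM in no fewer than 2 libraries. The members were well expressed, with a median over genes of 35.5 and 39.1 RPKM on the anterior side, against 32.4 and 37.8 RPKM on the posterior side. The same median over all tested genes was 8.82 and 8.59 RPKM in the anterior libraries, against 7.21 and 8.43 RPKM in the posterior ones. The core genes stood highest, with a median mean level of 104 RPKM that lay at the median percentile 97.2 of all genes. The 19S genes had a median mean level of 45.9 RPKM, the UBE2 genes of 28.5 RPKM and the activator, inhibitor and assembly genes of 24.9 RPKM.

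The 20S core varied least outside posterior library 1. Among the other 3 libraries the highest and lowest value of a gene differed by a median of 1.08-fold in the core, 1.10-fold in the 19S particle, 1.21-fold in activators, inhibitor and assembly genes and 1.16-fold in UBE2 genes, against 1.26-fold over all tested genes. The classes with higher median levels had the smaller ranges, and all tested genes had the lowest median level and the widest range. Genes of equal level were not compared. The summed level of the core was 1108 and 1161 RPKM on the anterior side, against 1144 and 1174 RPKM on the posterior side, so the sides overlapped. PSMB1, a beta ring subunit, held the closest values, at 138 and 140.1 RPKM in the anterior libraries, against 142 and 139.5 RPKM in the posterior ones. Its log2 difference, anterior minus posterior on the scale of log2(RPKM + 1), was -0.017 with a 95% interval of -0.58 to 0.55. The interval was wide beside the closeness of the 4 values. Standard errors, intervals and p-values came from limma, which moderates the spread of each gene toward that of other genes. They thus do not measure the spread of a gene alone. The standard error of PSMB1, 0.23, was the smallest of all tested genes. The alpha subunit genes PSMA1, PSMA3, PSMA4 and PSMA6, which form part of the gated ring, lay between 97.1 and 162 RPKM in all libraries. The beta subunit gene PSMB7, which encodes the trypsin-like protease, had 133 and 140.2 RPKM on the anterior side, against 148 and 151 RPKM on the posterior side. Both posterior libraries were above both anterior libraries, with a log2 difference of -0.13 and a standard error of 0.23.

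The core genes did not have equal RPKM although the core holds its protein subunits in equal numbers. The counting of reads is not described, which limits comparing RPKM between different genes. Mean levels ran from 21.0 RPKM for PSMB2, a structural beta subunit, to 148 RPKM for PSMA3, an alpha subunit, a 7.07-fold range. The order of the alpha genes was the same in both anterior libraries and posterior library 2, led by PSMA3, PSMA1 and PSMA2. In posterior library 1 it was led by PSMA2, and PSMA5 took the last place from PSMA7. PSMB3 lay between 72.01 and 93.6 RPKM over the 4 libraries and PSMA7 between 27.5 and 33.2 RPKM, and both were lowest in posterior library 1.

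In the deposited values 3 core genes departed from this evenness, each in posterior library 1. Median ratio scaling, with a factor of 0.872 for posterior library 1 and 1.04 to 1.06 for the others, raises posterior library 1 relative to them. Which core genes stand apart thus depends on scaling. PSMA5, an alpha ring subunit, had 41.4 and 45.2 RPKM in the anterior libraries, against 21.5 and 45.3 RPKM in the posterior ones. Posterior library 1 was 0.490 of the mean of the other 3, which lay within 1.10-fold of each other, and the log2 difference was 0.45 with a standard error of 0.39. PSMB4, a beta subunit, had 81.2 and 87.8 RPKM on the anterior side, against 57.7 and 83.7 RPKM on the posterior side. PSMA2, an alpha subunit, went the other way, with 118 and 117 RPKM in the anterior libraries, against 160.3 and 116 RPKM in the posterior ones. The ratio of PSMA5 to PSMA2 was 0.351 and 0.387 in anterior libraries, against 0.134 and 0.390 in posterior libraries 1 and 2. Without posterior library 1 the log2 difference was -0.067 for PSMA5, 0.012 for PSMB4 and 0.015 for PSMA2.

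**Figure D1:**
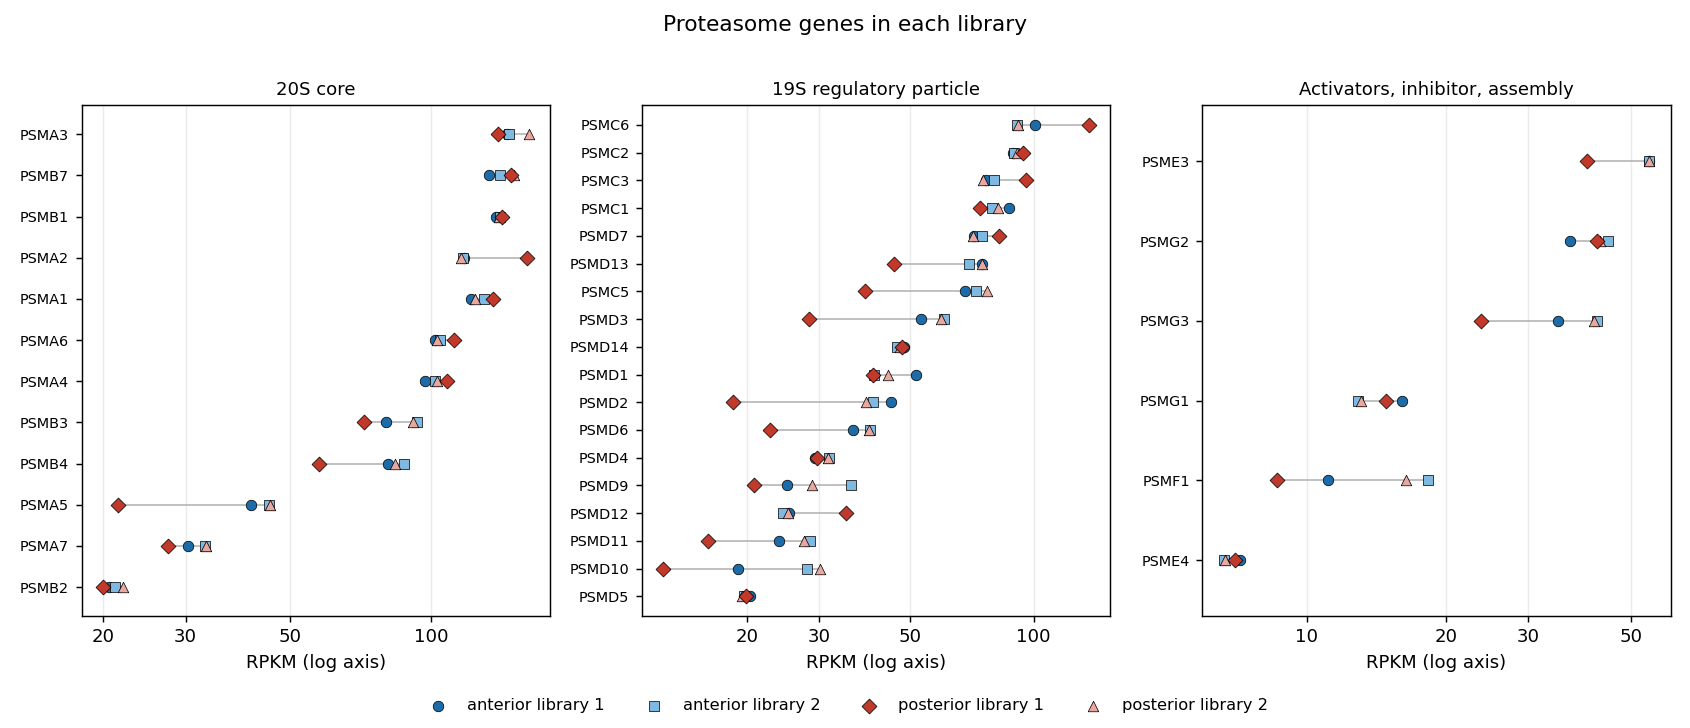
RPKM on a log axis of the 36 proteasome genes in each of the 4 libraries, ordered by mean level within the 20S core, the 19S particle and the activator, inhibitor and assembly genes. Each symbol is 1 library and the grey line joins the lowest and the highest. Red diamonds, posterior library 1, lie left of the other symbols for genes such as PSMA5, PSMD2 and PSMD3 and right of them for PSMA2, PSMC6 and PSMD12.

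The 19S particle had a summed level of 944 and 953 RPKM on the anterior side, against 859 and 954 RPKM on the posterior side. The ATPase genes measured here were PSMC1, PSMC2, PSMC3, PSMC5 and PSMC6, and their mean levels lay within 1.64-fold of each other, from 63.98 to 105 RPKM. Their summed level was 421 and 412 RPKM in the anterior libraries, against 439 and 416 RPKM in the posterior ones. PSMC2 held at 89.2 and 89.3 RPKM on the anterior side, against 94.1 and 90.8 RPKM on the posterior side, with both posterior values above both anterior values by a log2 difference of -0.05 and a standard error of 0.23. PSMC5 had 67.9 and 72.4 RPKM in the anterior libraries, against 38.8 and 76.8 RPKM in the posterior ones, so posterior library 1 was lowest and posterior library 2 highest. PSMC6, another ATPase of the ring, had 101 and 91.1 RPKM on the anterior side, against 136 and 91.7 RPKM on the posterior side. The ratio of PSMC5 to PSMC6 was 0.674 and 0.795 in anterior libraries, against 0.285 and 0.837 in posterior libraries 1 and 2.

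Among the scaffold and lid genes, PSMD2 separated the sides. PSMD2 encodes a base scaffold that docks ubiquitin receptors and shuttle factors, and it had 44.9 and 40.5 RPKM in the anterior libraries, against 18.5 and 39.0 RPKM in the posterior ones. Both anterior libraries were above both posterior libraries, but anterior library 2 exceeded posterior library 2 by less than the gap between the anterior libraries. The log2 difference was 0.65 with a standard error of 0.39, and it was 0.13 without posterior library 1. The other scaffold, PSMD1, lay between 40.6 and 51.6 RPKM in all 4 libraries. PSMD3, a lid subunit, had 53.1 and 60.4 RPKM on the anterior side, against 28.3 and 59.4 RPKM on the posterior side. Posterior library 2 fell inside the anterior range, and the log2 difference of 0.45 (standard error 0.39) became -0.068 without posterior library 1.

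PSMD6, another lid subunit, had 36.2 and 40.0 RPKM on the anterior side, against 22.7 and 39.8 RPKM on the posterior side. Its log2 difference of 0.33 (standard error 0.33) became -0.061 without posterior library 1. The lid genes PSMD11 and PSMD13 were also lowest in posterior library 1, at 16.0 and 45.6 RPKM, with at least 23.9 and 69.4 RPKM in the other 3. PSMD12, a lid subunit too, was highest in posterior library 1, at 34.8 RPKM against 24.5 to 25.3 RPKM in the others. PSMD14, the deubiquitinase of the lid, had 48.2 and 46.4 RPKM in the anterior libraries, against 47.7 and 47.3 RPKM in the posterior ones. Its values lay within 1.04-fold of each other, as close as any in the class. The ubiquitin receptor gene PSMD4 lay between 29.4 and 31.7 RPKM, and PSMD7, the partner of PSMD14, between 71.2 and 82.5 RPKM. Over all 10 non-ATPase subunit genes the summed level was 458 and 457 RPKM on the anterior side, against 366 and 460.0 RPKM on the posterior side.

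The 3 chaperones that assemble the 19S base differed among themselves. PSMD5 held between 19.4 and 20.3 RPKM. PSMD10, also known as gankyrin, had 19 and 28.0 RPKM in the anterior libraries, against 12.5 and 30.2 RPKM in the posterior ones, so the posterior libraries held both its lowest and its highest value. PSMD9 had 24.99 and 35.9 RPKM on the anterior side, against 20.8 and 28.7 RPKM on the posterior side, and the sides overlapped.

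The activator, inhibitor and assembly genes were lower in level. PSME3 encodes a nuclear activator that opens the core without ATP, and it had 54.8 and 54.6 RPKM in the anterior libraries, against 40.1 and 54.7 RPKM in the posterior ones. The 3 libraries other than posterior library 1 lay within 1.003-fold of each other. PSME4, a large activator that acts on chromatin proteins, was the lowest proteasome gene and lay between 6.62 and 7.18 RPKM in all 4 libraries. PSMF1, an inhibitor of the core in the test tube, had 11.1 and 18.3 RPKM on the anterior side, against 8.61 and 16.3 RPKM on the posterior side, with the sides overlapping. Of the core chaperones, PSMG3 had 34.7 and 42.3 RPKM in the anterior libraries, against 23.8 and 41.6 RPKM in the posterior ones. PSMG1 and PSMG2, which act as a dimer, lay between 12.9 and 16.0 RPKM and between 37.0 and 44.6 RPKM. No gene bore the name of the catalytic core genes PSMB5 and PSMB6, the immunoproteasome genes, PSMC4, PSMD8, PSME1, PSME2 or PSMG4. Whether any of them was among the genes with only an Ensembl ID was not tested.

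The UBE2 genes covered a wider range than the proteasome genes. Mean levels ran from 4.11 RPKM for UBE2L6, which conjugates ISG15, to 131 RPKM for UBE2L3, which serves HECT and RBR ligases, a 32.0-fold range. UBE2L3 and UBE2D3, an E2 used by many RING ligases, were the highest in every library. Their summed level with the other 25 genes was 902 and 915 RPKM on the anterior side, against 1022 and 925 RPKM on the posterior side. The closeness of some copies limits this: UBE2D1 and UBE2D3, and UBE2V1 and UBE2V2, are close copies as proteins, and how reads shared by such genes were assigned is not stated, so the level of each is uncertain.

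UBE2M, UBE2C and UBE2O had the largest anterior excess of all members. UBE2M loads NEDD8 onto cullin ligases, and it had 13.9 and 16.6 RPKM in the anterior libraries, against 5.29 and 13.3 RPKM in the posterior ones. UBE2C hands ubiquitin to targets of the anaphase promoting complex in mitosis, and it had 30.4 and 38.3 RPKM on the anterior side, against 14.7 and 30.003 RPKM on the posterior side. UBE2O, a large enzyme with E2 and ligase activity that clears unassembled proteins in red cell precursors, had 6.13 and 6.33 RPKM in the anterior libraries, against 2.07 and 5.75 RPKM in the posterior ones. In all 3 the anterior libraries were above the posterior libraries, but posterior library 2 lay close to the lower anterior value. The log2 differences were 0.77, 0.67 and 0.67 with standard errors of 0.43, 0.39 and 0.42. Without posterior library 1 they were 0.18 for UBE2M, 0.18 for UBE2C and 0.10 for UBE2O. UBE2J2 also had both anterior libraries above both posterior libraries, at 23.6 and 24.4 RPKM against 21.7 and 23.5 RPKM.

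Other UBE2 genes were highest in posterior library 1. UBE2L3 had 121 and 102 RPKM on the anterior side, against 190.1 and 113 RPKM on the posterior side, and UBE2D3 had 112 and 100.3 RPKM in the anterior libraries, against 173 and 109 RPKM in the posterior ones. UBE2W, which tags protein N termini, had 9.36 and 7.03 RPKM on the anterior side, against 18.6 and 7.79 RPKM on the posterior side. Posterior library 1 was 2.31 times the mean of the other 3 libraries for UBE2W, the widest gap upward among the members. UBE2J1, which serves degradation at the endoplasmic reticulum, had 12.6 and 9.29 RPKM in the anterior libraries, against 15.9 and 12.3 RPKM in the posterior ones. For all 4 of these genes posterior library 2 fell within the anterior range.

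Of 7 pairs of related UBE2 genes, some differed in ratio in posterior library 1 and others stayed close. How reads shared by the genes of a pair were assigned is not stated, which limits each of these ratios. UBE2A and UBE2B, close relatives that tag histone and repair proteins, had 30.6 and 35.6 RPKM and 25.3 and 24.2 RPKM in anterior libraries. In posterior libraries 1 and 2 they had 24.0 and 33.7 RPKM and 44.0 and 24.5 RPKM. The ratio of UBE2A to UBE2B was 1.21 and 1.47 in anterior libraries, against 0.547 and 1.38 in posterior libraries 1 and 2. Of the NEDD8 enzymes, UBE2F had 29.9 and 29.2 RPKM on the anterior side, against 38.8 and 28.8 RPKM on the posterior side, and the ratio of UBE2M to UBE2F was 0.463 and 0.570 in anterior, against 0.136 and 0.462 in posterior libraries. UBE2G1 and UBE2G2, both known from degradation at the endoplasmic reticulum, kept a steadier ratio, at 1.18 and 1.001 in anterior and 1.21 and 1.13 in posterior libraries. Both were lowest in posterior library 1, at 36.9 and 30.4 RPKM, against at least 49.7 and 42.1 RPKM elsewhere. The ratio of UBE2D1 to UBE2D3 was 0.121 and 0.185 on the anterior side, against 0.116 and 0.146 on the posterior side, and that of UBE2V1 to UBE2V2 was 0.635 and 0.543, against 0.513 and 0.553. The ratio of UBE2E1 to UBE2E3 was 3.61 and 2.99 on the anterior side, against 5.21 and 3.19 on the posterior side, and that of UBE2J1 to UBE2J2 was 0.534 and 0.381, against 0.733 and 0.524. Posterior library 1 had the highest value of the last 2 ratios.

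Smaller gaps were found for other UBE2 genes. UBE2E1, which serves RING ligases, lay between 27.1 and 30.8 RPKM, and UBE2V1, an inactive partner of UBE2N, between 34.4 and 37.8 RPKM. UBE2V2, the other partner of UBE2N, had 59.5 and 63.4 RPKM on the anterior side, against 73.2 and 66.1 RPKM on the posterior side, with both posterior values above both anterior values. The same held for UBE2H, at 33.95 and 31.6 RPKM against 40.1 and 34.7 RPKM, and for UBE2K, which builds ubiquitin chains for degradation, at 47.2 and 45.2 RPKM against 53.7 and 47.5 RPKM. UBE2N lay between 26.4 and 34.5 RPKM. UBE2T, which tags the Fanconi anemia repair proteins, had 19.4 and 22.8 RPKM in the anterior libraries, against 15.0 and 21.1 RPKM in the posterior ones. UBE2T was lowest in posterior library 1, the sides overlapped, and its log2 difference was 0.23 with a standard error of 0.28.

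The other UBE2 genes followed one of these patterns. UBE2Q1, UBE2E3, UBE2R2 and UBE2Z were lowest in posterior library 1, at 17.3, 5.34, 13.5 and 3.57 RPKM. Their values in the other 3 libraries were at least 26.9, 7.501, 17.7 and 5.14 RPKM. UBE2D1 lay between 13.5 and 19.99 RPKM and was lowest in anterior library 1. UBE2L6 had 2.95 and 5.31 RPKM on the anterior side, against 2.66 and 5.50 RPKM on the posterior side, so both its lowest and its highest value were posterior. PSMC3IP, counted apart from both families, had 5.73 and 11.2 RPKM in the anterior libraries, against 3.91 and 9.82 RPKM in the posterior ones. It was lowest in posterior library 1 and highest in anterior library 2.

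**Figure D2:**
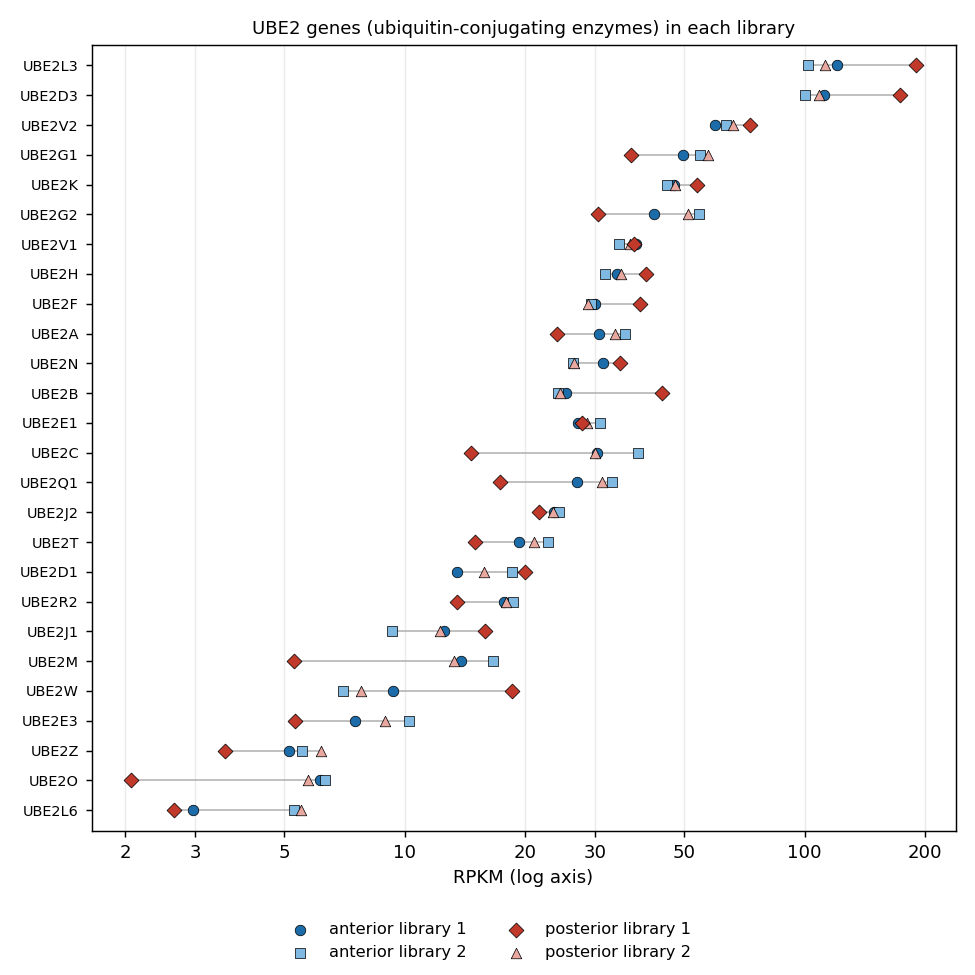
RPKM on a log axis of the 26 UBE2 genes in each of the 4 libraries, ordered by mean level. Each symbol is 1 library and the grey line joins the lowest and the highest. Posterior library 1, the red diamond, is lowest for UBE2C, UBE2M and UBE2O and highest for UBE2L3, UBE2D3, UBE2B and UBE2W.

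The question of the design was whether anterior papilla tissue differs from posterior. None of the 64 members passed limma's test, with adjusted p from 0.964 to 0.999 (Benjamini-Hochberg over all 10939 genes, threshold 0.05), and 0% of all tested genes passed. At an unadjusted limma p under 0.05 there were 0 members and 103 genes in all, 0.942% of those tested. The smallest unadjusted limma p among the members was 0.130 for UBE2M, with 2 of 2 anterior libraries above both posterior libraries. Log2 differences of the members ran from -0.52 (UBE2W) to 0.77 (UBE2M), so none reached 2-fold on this scale. Their standard errors were 0.23 to 0.49. The 95% interval reached from -1.61 to 0.56 for UBE2W and from -0.31 to 1.85 for UBE2M, past 1 log2 unit in each case. A 2 against 2 design cannot give a two-sided exact permutation p under 0.333. In simulated data the limma test found 0.2% of genes changed 2-fold, so not passing does not show equal levels on the 2 sides.

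Differences of each sign were found in every class. The median log2 difference was -0.027 for the core, 0.11 for the 19S particle, 0.13 for activators, inhibitor and assembly genes and 0.033 for UBE2 genes, beside 0.11 over all tested genes. Relative to that general shift the medians were -0.14, -0.0082, 0.017 and -0.081. These directions depended on scaling. After median ratio scaling the medians were -0.17, -0.034, -0.0052 and -0.10, and after quantile normalization 0.0059, 0.11, 0.034 and -0.031, so no class kept a direction under both except the UBE2 genes, whose direction was then opposite to that of the deposited values. Of the 64 members 36 had a positive difference as deposited, 25 after median ratio scaling and 32 after quantile normalization. Of the 10939 tested genes, 7065, 5400 and 5445 did under the same 3 scalings, so positive differences were a smaller share of the members than of all genes in the deposited values.

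Members whose sides did not overlap were few. Both anterior libraries were above both posterior libraries for 5 of 64 members (7.81%), against 18.9% of all tested genes. These were PSMD2, UBE2C, UBE2J2, UBE2M and UBE2O. Both posterior libraries were above both anterior libraries for 6 of 64 (9.38%), against 7.25% of all tested genes. These were PSMA4, PSMB7, PSMC2, UBE2H, UBE2K and UBE2V2. After median ratio scaling the numbers were 3 and 12, against 13.9% and 12.2% of all tested genes.

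**Figure D3:**
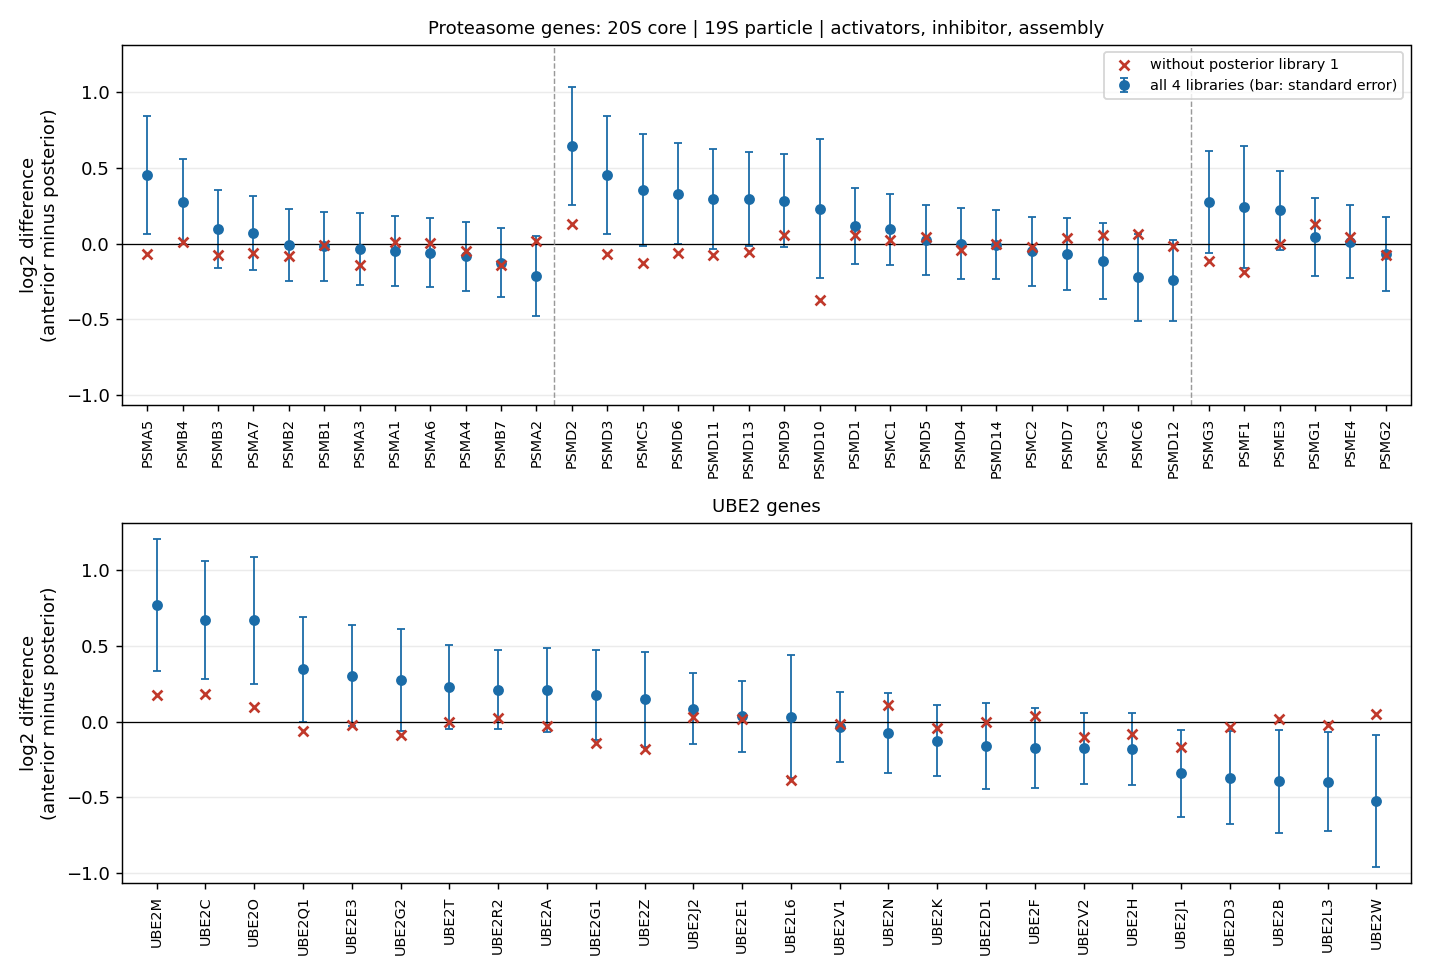
Log2 difference, anterior minus posterior, of the 36 proteasome genes above and the 26 UBE2 genes below, from limma on log2(RPKM + 1). Blue points with standard error bars use all 4 libraries and red crosses leave out posterior library 1. The crosses lie between -0.38 and 0.18, while the points reach from -0.52 to 0.77. The crosses of UBE2L6 and PSMD10, at -0.38 and -0.37, lie further from 0 than their points.

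Most of the spread between sides came with posterior library 1. Without it, differences over the 64 members ran from -0.38 (UBE2L6) to 0.18 (UBE2C), with an SD over genes of 0.10, against 0.27 over all tested genes. Without posterior library 2 they ran from -1.10 to 1.36, with an SD of 0.54, against 0.69 over all tested genes. Both comparisons share the anterior libraries. Without posterior library 2, 0 members passed at an adjusted limma p under 0.05, while 1.26% of all tested genes did with anterior values higher and 0.804% with posterior values higher. At an unadjusted limma p under 0.05 there were 19 of 64 members, against 29.6% of all tested genes. Anterior library 2 and posterior library 2 were the closest pair for the members, with a median absolute log2 difference of 0.058, against 0.12 over all tested genes. The core genes of this pair differed by a median of 0.026. The anterior libraries differed from each other by a median of 0.13 over the members. The median level of the members was above that of all tested genes, and genes of equal level were not compared.

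At a threshold of 1.25-fold, the share of members standing apart in posterior library 1 was close to that of all tested genes. By a threshold chosen after the values were seen, at least 1.25-fold beyond each of the other 3 libraries, 24 of 64 members (37.5%) were below, against 36.9% of all tested genes. A further 9 of 64 (14.1%) were above, against 13.5%. With a 1.5-fold threshold 11 of 64 members were below, a smaller share than the 23.9% of all tested genes, and 4 of 64 above, against 6.67%. After median ratio scaling 10 of 64 were below, a smaller share than the 23.8% of all tested genes. There 18 of 64 were above, a larger share than 24%. Those below at 1.25-fold in the deposited values were 2 of 12 core genes, 7 of 18 of the 19S particle, 3 of 6 activators, inhibitor and assembly genes, 11 of 27 UBE2 genes and PSMC3IP. Those above were PSMA2 in the core, PSMC6 and PSMD12 in the 19S particle, and UBE2B, UBE2D3, UBE2F, UBE2J1, UBE2L3 and UBE2W. All 64 members together summed to close totals, at 3121 and 3219 RPKM on the anterior side, against 3165 and 3238 RPKM on the posterior side. The classes differed in this. The summed level in posterior library 1 was 0.996 of the mean of the other 3 libraries for the core and 0.904 for the 19S particle. It was 0.795 for activators, inhibitor and assembly genes and 1.12 for UBE2 genes, against 1.14 over all tested genes. The UBE2 sum was led by UBE2L3 and UBE2D3, both above in posterior library 1. The median UBE2 level was instead lowest in posterior library 1, at 24.0 RPKM. It was 27.1 and 29.2 RPKM in the anterior libraries and 28.6 RPKM in posterior library 2.

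**Figure D4:**
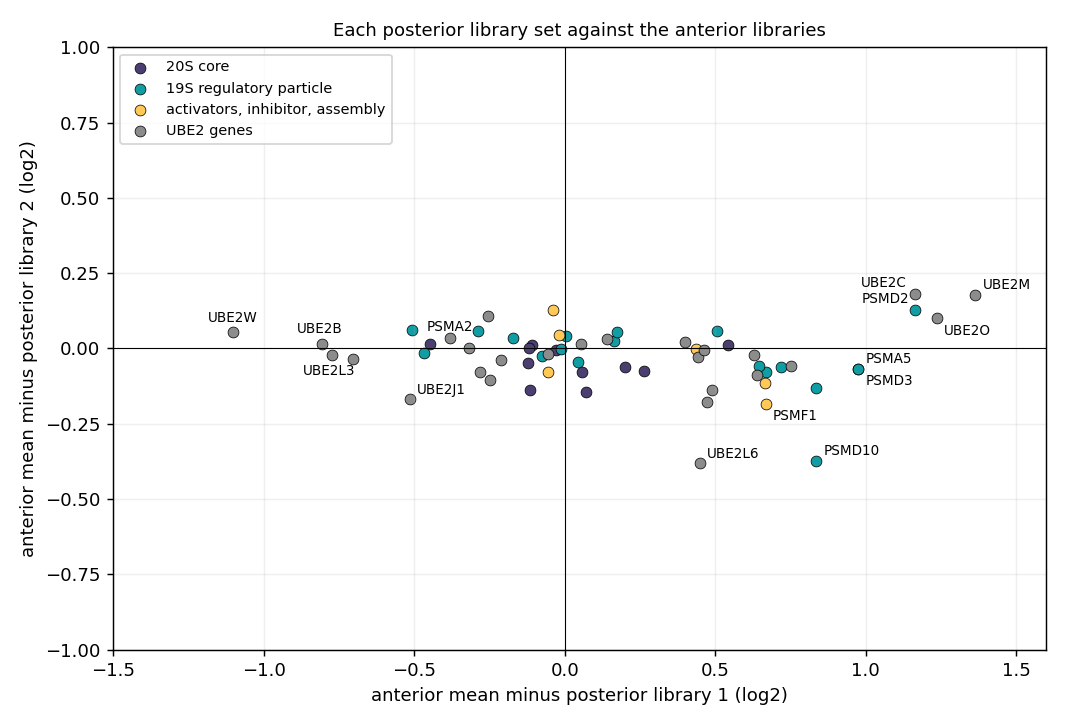
Mean of the anterior libraries minus posterior library 1 (horizontal axis) and minus posterior library 2 (vertical axis), in log2(RPKM + 1), for the 36 proteasome genes and 26 UBE2 genes. Each point is 1 gene, and both axes share the anterior libraries. Points spread from -1.10 (UBE2W) to 1.36 (UBE2M) along the horizontal axis and from -0.38 (UBE2L6) to 0.18 (UBE2C) along the vertical axis.

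Other genes of the pathway were read from lists. None of them passed the test (adjusted p over all genes, limma). Of 16 tested partners of the proteasome, 10 had a positive and 6 a negative log2 difference, with a median of 0.13, or -0.022 without posterior library 1. AKIRIN2, which brings proteasomes into the nucleus, had 31.9 and 30.9 RPKM in the anterior libraries, against 19.5 and 26.4 RPKM in the posterior ones, with no overlap. UBQLN4, a shuttle factor, had 10.4 and 11.01 RPKM on the anterior side, against 5.26 and 9.64 RPKM on the posterior side, also with no overlap. NFE2L1, the transcription factor that induces proteasome genes when proteasomes are impaired, had 32.4 and 28.2 RPKM in the anterior libraries, against 22.8 and 26.9 RPKM in the posterior ones, again with no overlap. Over the 16 partners the anterior libraries were above without overlap for 4 and the posterior libraries for 3, against 18.9% and 7.25% of all tested genes. POMP, the maturation factor of the core, had 81.8 and 77.2 RPKM on the anterior side, against 117 and 82.1 RPKM on the posterior side, with both posterior values above both anterior values.

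Upstream of the E2 step, 8 E1 enzyme genes were tested, and 4 had a positive and 4 a negative difference, with a median of 0.016. UBA7, the E1 enzyme of ISG15, had 5.21 and 6.18 RPKM in the anterior libraries, against 3.16 and 5.14 RPKM in the posterior ones. UBA3, which activates NEDD8 for UBE2M and UBE2F, had 38.4 and 33.5 RPKM on the anterior side, against 51.7 and 35.1 RPKM on the posterior side. The polyubiquitin gene UBB was by far the highest gene of the pathway lists, at 1521 and 1307 RPKM in the anterior libraries, against 2612 and 1413 RPKM in the posterior ones. RPS27A, which encodes ubiquitin fused to a ribosomal protein, was lowest in posterior library 1, at 585 and 707 RPKM on the anterior side, against 439 and 688 RPKM on the posterior side. Over the 7 ubiquitin and ubiquitin-like genes 2 differences were positive and 5 negative.

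The anaphase promoting complex, the ligase that UBE2C serves, had 11 positive and 2 negative differences among 13 tested genes, with a median of 0.15, or 0.019 without posterior library 1. Over all tested genes 7065 of 10939 differences were positive, with a median of 0.11, or 0.023 without posterior library 1. CDC20, its activator in mitosis, had 33.3 and 24.1 RPKM in the anterior libraries, against 15.3 and 22.6 RPKM in the posterior ones. ANAPC15 had 13.7 and 13.9 RPKM on the anterior side, against 7.83 and 11.5 RPKM on the posterior side, and ANAPC2 had 8.48 and 7.33 RPKM against 4.50 and 6.62 RPKM. All 18 tested proliferation genes had a positive difference, with a median of 0.56, or 0.091 without posterior library 1. UBE2C and UBE2T were lowest in posterior library 1, as were all 18 of these genes, and the part of proliferation in their values was not tested. Low values there were not particular to UBE2C and UBE2T. At the 1.25-fold threshold, 24 of 64 members and 36.9% of all tested genes were below in posterior library 1.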

How the data were processed

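Per the file headers and the labels, the authors deposited RPKM, reads per kilobase of gene scaled to the mapped reads, in 1 column per library for 15386 genes, with Ensembl release 78 in the name of the table. TopHat2, Partek and the build galGal4 are named in the submitters' processing notes, without versions. The library kit, Illumina TruSeq V2 per the labels' protocols, does not mark strand, and the counting of reads is described in none of the sources used here. Of the genes, 2745 had only an Ensembl ID and could not be matched to names here. Sequences of the members were not used here. 1 UBE2 gene is counted in the totals but not reported by name or plotted.

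Values were compared as log2(RPKM + 1), which understates the change of low genes. The genes that reached 1 RPKM in 2 or more libraries were fitted with limma 3.58.1 in R 4.3.3 (lmFit, eBayes with trend, two-sided, 2 residual degrees of freedom, no covariate), checked on simulated data. Benjamini-Hochberg adjusted p under 0.05 was the threshold. In the simulated data, 0.2% of genes changed 2-fold and 90.4% of genes changed 4-fold passed it. A mean of 1 and 14.4 unchanged genes passed it as well in these 2 settings. Errors were drawn independently for each gene, so the simulated data lack the shared departure of posterior library 1. Relative depth came from values under 0.3 RPKM, where 44.9% to 46.9% of genes had ratios between libraries that matched whole-number ratios (numbers to 5, tolerance 0.002 in natural log), against 0.75% to 0.83% at other offsets. The rest were not whole steps, so no reads were rebuilt and no count test was run. Any 2 libraries shared at most 1 identical value above 0. Values in every library are given for the members of smallest limma p per class and for UBE2C and UBE2T. Per class these were 4 core, 4 of the 19S particle, 3 activator, inhibitor or assembly and 8 UBE2 genes. UBE2S was planned beside UBE2C and UBE2T, but no gene bore its name. Others are named to show level or spread, after their values were seen. From the other lists up to 3 genes of smallest p were named, and NFE2L1, POMP, RPS27A and UBA3 after their values were seen. Members and lists were chosen with earlier results of these data known. As alternatives, the pseudocount was set to 0.1 or 0.5, the filter was dropped or raised to 5 RPKM, libraries were scaled by median ratios or by quantiles, eBayes ran with no trend, each library was left out, and the library number was a block. Python 3.11.15 and matplotlib 3.10.9 made the summaries and plots.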

Additional observations from a re-analysis of the deposited data

How the results depend on the processing

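No member passed the test under any of the 12 alternatives, and the smallest adjusted limma p of a named member was 0.0598 (UBE2M without posterior library 2). Over all genes 0 passed except 2 (0.0183%) with the block and 226 without posterior library 2 (range 0 to 226 over the libraries left out), 1.26% of all tested genes with anterior values higher and 0.804% with posterior values higher. Among the 20 named members, 9 kept their direction under all 12 alternatives. The other 11 changed it only when a library was left out, always posterior library 1 and for PSMF1 also anterior library 2. Their log2 differences ranged from -0.067 to 0.97 for PSMA5, -0.45 to 0.015 for PSMA2, -0.068 to 0.97 for PSMD3, -0.061 to 0.72 for PSMD6, -0.13 to 0.84 for PSMC5, -0.00024 to 0.44 for PSME3, -0.12 to 0.67 for PSMG3, -0.19 to 0.67 for PSMF1, -1.10 to 0.053 for UBE2W, -0.81 to 0.015 for UBE2B and -0.0052 to 0.46 for UBE2T.

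Median ratio scaling moved the class medians of the core to -0.17 and of UBE2 genes to -0.10, and the numbers of members without overlap to 3 with anterior values higher and 12 with posterior values higher. With a library left out the class medians ranged from -0.055 to 0.015 (core), -0.0080 to 0.17 (19S), -0.039 to 0.21 (activators, inhibitor and assembly) and -0.021 to 0.11 (UBE2). The numbers of members without overlap were then 10 to 34 and 13 to 22, but a side with 1 library separates more easily. No share over all tested genes is given for them, so they cannot be set beside the numbers from all 4 libraries. The side left with 1 library is taken to have the spread of the other. Among alternatives added after seeing the data, a 1.5-fold threshold left 11 members below (23.9% of all tested genes) and 4 above (6.67%) in posterior library 1, and median ratio scaling 10 (23.8%) and 18 (24%). Libraries carry the numbers 1 and 2 in the column names, and across genes the differences between number 1 and number 2 correlated between sides (r = 0.49 over all tested genes, 0.63 over the members), but no label pairs them. With the number as a block, 1 residual degree of freedom was left, and 2 members (UBE2C and UBE2M) and 5.64% of all genes had an unadjusted limma p under 0.05. RPKM holds no read totals, so counting error is unknown.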

Other observations

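Muscle-linked ubiquitin ligase genes were read beside the smooth muscle markers. FBXO32, a ligase subunit known from muscle wasting, had 10.1 and 11.7 RPKM in the anterior libraries, against 45.5 and 13.5 RPKM in the posterior ones, and ASB2 had 1.39 and 1.198 RPKM on the anterior side, against 8.28 and 2.13 RPKM on the posterior side. Both were highest in posterior library 1, and neither passed limma's test. For both, posterior library 2 was also above both anterior libraries, a separation found for 7.25% of all tested genes. The summed smooth muscle markers were instead lowest in posterior library 2, at 70.4 RPKM. FBXO40 had 0.952 and 0.611 RPKM in the anterior libraries, against 3.23 and 0.798 RPKM in the posterior ones and was not tested. TRIM63, another ligase of muscle wasting, did not exceed 0.134 RPKM.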
